A study of Mus musculus with 6 samples.

Results

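The genes described here build the lysosome of heart myeloid cells. They comprise 37 genes: 11 proteases (the cathepsins, legumain and tripeptidyl peptidase), 8 glycosidases, 6 genes that handle lipid and sterol, 5 membrane proteins, the transcription factor Tfeb and 6 genes of the proton pump. They were found by gene symbol among 19057 genes with a named probe, and 82 probes carried 1 of these symbols. A total of 36 of the 37 genes lay above background on at least 3 arrays and were tested, among 10506 genes tested in all. The sole probe of the remaining gene, Atp6v0d2, was at background on every array.

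The lysosome is the acidic compartment in which cells break down what they engulf or recycle. Its enzymes are made in the secretory pathway, are sorted by mannose 6-phosphate receptors and work at low pH, which a multi-subunit proton pump, the V-ATPase, maintains. Macrophages rely on it to digest dead cells and matrix, which an infarcted heart holds in quantity, and TFEB and its relatives switch on many of its genes through a shared promoter motif.

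The cells were CD11b+ Ly6G- cells, meaning myeloid cells without the neutrophil surface marker Ly6G, sorted from hearts of ICR mice, an outbred strain, with both sexes in the material. All mice had their left anterior descending coronary artery tied off, and hearts were taken 3 days later, with no other treatment and no uninjured group among the samples used here. The 3 arrays of the P14 group came from mice infarcted 14 days after birth, and the 3 arrays of the P1 group from mice infarcted 1 day after birth. The labels do not say whether arrays came from separate animals or from pools, so p-values reflect only how far these samples scatter, and that scatter may be technical.

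Total RNA was read on Illumina bead arrays, and all values below are log2 of the normalized probe intensity the authors deposited. A probe counted as above background when it passed an intensity of 126 (6.98 on the log2 scale), which 18917 to 18937 probes per array did. All 8 tested genes of the macrophage and gate list, among them Itgam, Adgre1, Cd14 and Lyz2, were above that level on all 6 arrays. In this list Csf1r was lower in P14 (-0.82 ± 0.10, limma, adjusted p = 0.00237) and Ptprc higher (0.42 ± 0.10, adjusted p = 0.0255), with summed intensities of 53960 to 58140 in P14 and 56090 to 58650 in P1. Markers of other cell types moved with age too. Of 7 neutrophil markers tested all 7 were lower in P14, with summed intensities of 5095 to 8183 in P14 and 13920 to 20530 in P1, while Ly6g was not analysed here. Of 6 cardiomyocyte markers 4 were lower in P14, with sums of 1420 to 1704 in P14 and 3585 to 7411 in P1, and Myh7 was at background. Myl2 gave the largest part of these sums, while Tnni3, Ryr2 and Pln lay near background. Of 7 resident macrophage markers 4 were lower in P14 (9004 to 10620 in P14 and 22310 to 26310 in P1), and of 4 monocyte markers 3 were higher (3905 to 7603 in P14 and 2232 to 4394 in P1). Plac8 gave the largest part of the monocyte sums and did not itself pass (limma, adjusted p = 0.124). Of 6 fibroblast markers 1, Col1a1, was lower in P14 (2336 to 2583 in P14 and 2335 to 3739 in P1). No endothelial marker of 6 passed (1156 to 1331 in P14 and 1244 to 1790 in P1). Neither erythroid marker passed, with sums that varied between arrays (15100 to 31120 in P14 and 21630 to 28780 in P1). Of 3 lymphocyte markers 1 was higher in P14 (454.1 to 500.6 in P14 and 373.2 to 420.7 in P1). The part of these markers in the lysosomal differences was not tested. In sorted bulk material, fewer cells of a type and less RNA per cell cannot be told apart.

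Lysosomal genes were called in both directions between the ages. At an adjusted p under 0.05 (limma, Benjamini-Hochberg over all genes tested), 5 of the 36 tested genes were higher in P14 by their tested, brightest probe (Npc1, Gusb, Ctsc, Gla and Atp6v0d1) and 3 were lower (Atp6v1b2, Tpp1 and Manba). Together these were 22.2% of the lysosomal genes, against 20.0% of all genes tested (9.62% higher and 10.4% lower in P14), so the share called was near that of the whole array. The groups did not overlap in 14 of the 36 genes (38.9%), against 38.5% of all genes. The median log2 difference, P14 minus P1, was 0.16 over the lysosomal genes and -0.01 over all genes. Of the 36 differences 26 were positive, against 5064 of 10506 over all genes. These figures rest on the brightest probe of each gene. Among the further lysosomal probes above background, negative differences were more frequent than positive ones. Averaged over the 36 genes, P1 replicate 2 deviated most from the mean of the 6 arrays, at -0.12. The other P1 arrays lay at -0.03 each and the P14 arrays at 0.04 to 0.08. The differences of the tested probes ranged from -0.53 to 0.75. Without single arrays the number of genes higher in P14 was 3 (P14 replicate 2, P1 replicate 2 or P1 replicate 3), 5 (P14 replicate 1 or P1 replicate 1) or 6 (P14 replicate 3). The number lower was 1 without P14 replicate 3 or P1 replicate 3, 2 without P14 replicate 1, P14 replicate 2 or P1 replicate 1, and 3 without P1 replicate 2.

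**Figure D1:**
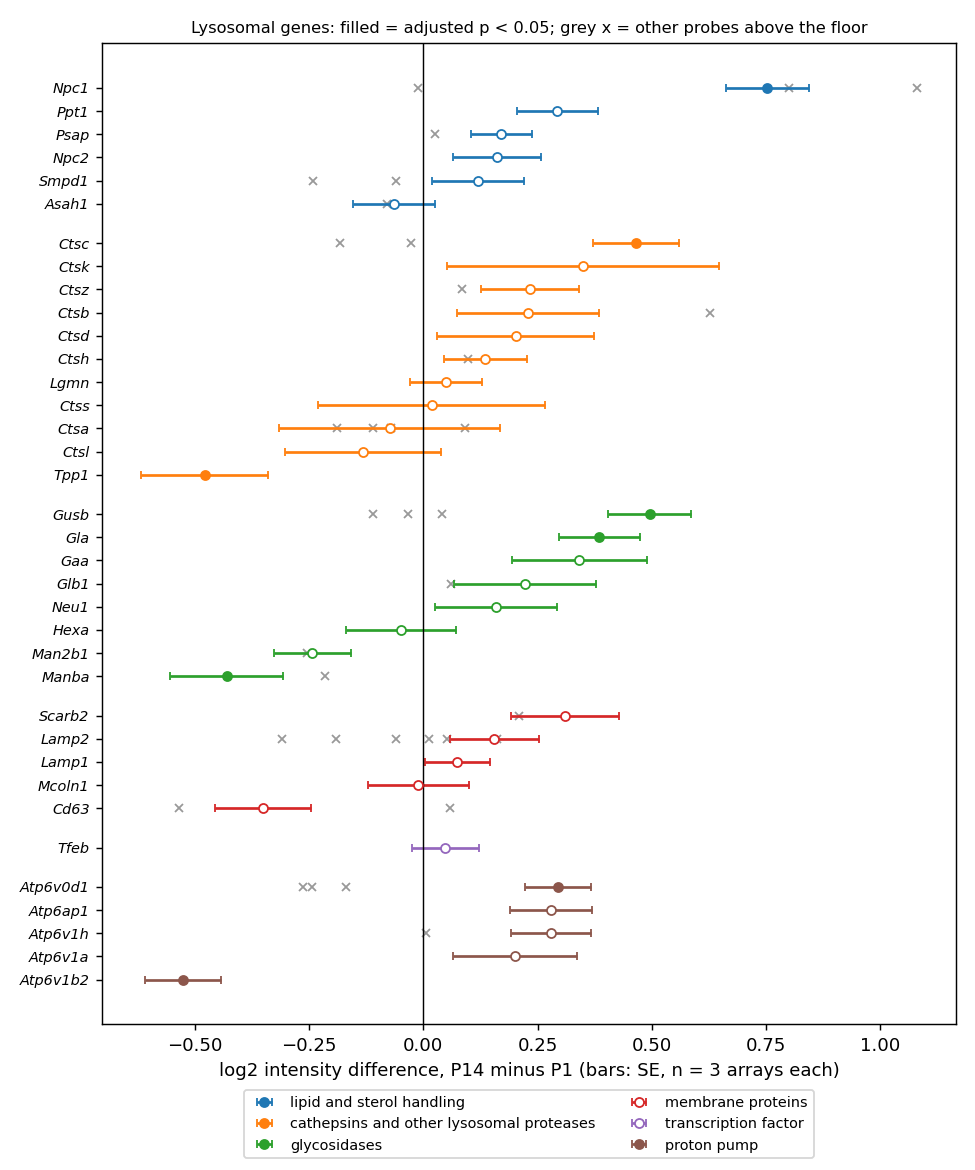
Log2 intensity difference, P14 minus P1, of the 36 tested lysosomal genes by class, with standard errors (n = 3 arrays each); filled circles passed an adjusted p of 0.05, and grey crosses mark further probes of the same gene above the floor. The 8 filled circles lie on both sides of 0, between -0.53 and 0.75, and for Gusb, Ctsc and Atp6v0d1 the crosses sit away from the circle.

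TFEB binds a motif with the core CACGTG, so promoters of the lysosomal genes were searched on both strands over 300 bases, from 250 before to 50 after the start site (RefSeq, GRCm38.p6). A promoter was found by symbol for 30 of the 37 genes. The form TCACGTG, or CACGTGA on the other strand, occurred in 10 of these (33.3%), against 4.29% of 27025 genes and 7.18% of the tested genes with a promoter. The carriers were Atp6v0d1, Atp6v1a, Ctsa, Ctsd, Gaa, Gla, Glb1, Lamp1, Lgmn and Mcoln1. The palindrome TCACGTGA, which holds TCACGTG on both strands, was in 6 of them of the 30, against 1.13% of all genes and 2.29% of the tested ones. The longest form searched was the palindrome with a further G before it and C after it. That form was in none of the 30, against 0.37% of all genes and 0.82% of the tested ones. The higher shares among lysosomal genes were thus seen for the shorter forms. The longest form is so rare over all genes that 30 promoters are too few to compare its share. The bare core CACGTG was in 11 of the 30, Ctsl being the added gene, against 8.09% of all genes. Of the 10 carriers of TCACGTG, Gla and, by its tested probe, Atp6v0d1 were called higher in P14 and none lower. Over all tested genes with this form 11.1% were higher and 9.77% lower in P14, near the shares of all genes given above. A match describes letters and not binding.

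The promoters of both called carriers are shown from 250 bases before to 10 after the start site, 5′ to 3′ on the strand of the gene, with the motif in capitals. The Gla stretch lies at chrX:134600996-134601255, minus strand, and holds the palindrome with its first base at -228 and at -195 from the start site. The Atp6v0d1 stretch lies at chr8:105566055-105566314, minus strand, and holds it across the start site, with its first base at -4.
Gla: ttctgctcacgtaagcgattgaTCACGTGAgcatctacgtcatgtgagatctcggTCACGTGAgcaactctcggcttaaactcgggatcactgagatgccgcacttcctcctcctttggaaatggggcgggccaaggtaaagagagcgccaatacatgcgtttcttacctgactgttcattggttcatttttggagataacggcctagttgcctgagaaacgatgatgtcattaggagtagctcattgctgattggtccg
Atp6v0d1: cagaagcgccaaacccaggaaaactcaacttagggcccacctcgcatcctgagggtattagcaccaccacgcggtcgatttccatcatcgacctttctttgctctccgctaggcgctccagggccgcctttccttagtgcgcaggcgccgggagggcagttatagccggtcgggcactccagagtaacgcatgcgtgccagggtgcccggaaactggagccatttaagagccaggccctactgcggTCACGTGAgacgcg

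Within the sterol and lipid class, Npc1 stood out. Npc1 encodes the membrane transporter that moves cholesterol out of the lysosome. Its tested probe read 12.23, 12.25 and 12.52 on the P14 arrays, against 11.60, 11.56 and 11.58 on the P1 arrays. All 3 P14 arrays lay above all 3 P1 arrays, and the log2 difference was 0.75 ± 0.09 (SE, n = 3 per group), or 1.69-fold higher in P14 (limma, adjusted p = 0.00260). A further pair of Npc1 probes moved the same way. They differed by 1.08 ± 0.08 (adjusted p = 0.00118 over all 19106 probes above background) and by 0.80 ± 0.17 (adjusted p = 0.0195). Another probe, which passed the floor on only 4 arrays, differed by -0.01, and 3 more were at background throughout. The call held without every single array, with an adjusted p of 0.00331 to 0.0136.

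The partner of Npc1, the soluble cholesterol carrier Npc2, read 11.60, 11.52 and 11.60 in P14 and 11.45, 11.22 and 11.57 in P1. These ranges overlapped, and the difference of 0.16 ± 0.10 did not pass (limma, adjusted p = 0.285). Ppt1, which removes fatty acids from proteins, had 9.77, 10.03 and 10.00 in P14 against 9.64, 9.72 and 9.56 in P1. The groups did not overlap, but the difference of 0.29 ± 0.09 fell just short (adjusted p = 0.0531), and it passed without P14 replicate 1 (adjusted p = 0.0347). Psap, the precursor of the saposins that present lipids to their hydrolases, was at 14.79, 14.81 and 14.70 in P14 and 14.54, 14.60 and 14.63 in P1. That difference, 0.17 ± 0.07, did not pass either (adjusted p = 0.110), although the ranges were apart. The acid ceramidase Asah1 and the acid sphingomyelinase Smpd1 differed by -0.06 and 0.12.

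Among the proteases, 1 of 11 was higher and 1 lower in P14 (18.2% called, against 20.0% of all genes). Ctsc, or dipeptidyl peptidase 1, which activates granule serine proteases of leukocytes, read 9.77, 9.55 and 9.70 in P14 against 9.34, 9.07 and 9.22 in P1. The groups did not overlap and the log2 difference was 0.47 ± 0.09, or 1.38-fold higher in P14 (limma, adjusted p = 0.0141), a call held without every single array. The other Ctsc probes did not share the difference. They gave -0.03 ± 0.08 and -0.18 ± 0.11 (adjusted p = 0.854 and 0.291 over all probes), and the mean of the 3 probes differed by 0.09 (adjusted p = 0.472).

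Tpp1, the tripeptidyl peptidase whose loss in humans causes a form of neuronal ceroid lipofuscinosis, moved the other way. Its values were 9.36, 9.71 and 9.68 in P14 against 9.87, 10.33 and 10.00 in P1, with no overlap. It was 1.39-fold lower in P14 (log2 difference -0.48 ± 0.14, limma, adjusted p = 0.0466). This call was marginal: it was lost without any array other than P1 replicate 1. Adjusted p was then 0.129 and 0.0727 without P14 replicates 1 and 2, 0.0603 without P14 replicate 3, and 0.107 and 0.0964 without P1 replicates 2 and 3. With all arrays the call was also lost when dim probes were not filtered out (0.0849). The same held with the mean of probes (0.0518), every kept probe tested (0.0511) or a further loess step (0.0516). A second Tpp1 probe was at background on all arrays.

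Within this protease class, the other cysteine and aspartic cathepsins did not pass the test. Cathepsins outside the class were read with the other lysosomal hydrolases below. Ctsb, an abundant cysteine protease of phagocytes, read 14.45, 14.49 and 13.88 in P14 and 13.95, 14.10 and 14.08 in P1. P14 replicate 3 lay below all P1 arrays and the other P14 arrays above them, so that the difference was 0.23 ± 0.16 (limma, adjusted p = 0.352) with all arrays and 0.43 (adjusted p = 0.0146) without P14 replicate 3. The dimmer Ctsb probe read 8.18, 8.02 and 8.59 in P14 against 7.53, 7.67 and 7.70 in P1. Its groups did not overlap, and its difference of 0.63 ± 0.14 passed over all probes (adjusted p = 0.0220). Ctsb was thus called or not by which probe stood for the gene.

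Several proteases varied more within an age than between ages. Ctsk, the collagen-degrading cathepsin of osteoclasts, also made by fibroblasts, read 10.00, 9.61 and 8.84 in P14 against 9.38, 9.35 and 8.67 in P1. Replicate 3 was the lowest array of either group, and the difference was 0.35 ± 0.30 (limma, adjusted p = 0.466). Of 3 osteoclast markers above background 2 were higher in P14, at sums of 521.7 to 559 in P14 and 431.9 to 455.8 in P1, with Calcr and Ocstamp at background, and their part in Ctsk was not tested. Ctss, which trims the invariant chain of MHC class II, read 9.95, 10.24 and 9.80 in P14 and 10.57, 9.88 and 9.49 in P1, with a difference of 0.02 ± 0.25 (adjusted p = 0.971). Ctsa, a serine carboxypeptidase that also protects the sialidase Neu1 and the galactosidase Glb1, spanned 10.33 to 10.98 in P14 and 10.46 to 11.32 in P1. The SD within groups was 0.50 for Ctsk, 0.42 for Ctss and 0.40 for Ctsa, where the median was 0.25 over the 11 proteases and 0.11 over all genes tested.

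The remaining proteases showed small differences. Ctsz and Ctsd differed by 0.23 ± 0.11 and 0.20 ± 0.17, and Ctsh, which acts as an aminopeptidase, by 0.14 ± 0.09. Ctsl differed by -0.13 ± 0.17 and Lgmn, the asparaginyl endopeptidase that matures cathepsins, by 0.05 ± 0.08. None of these passed the test, with adjusted p-values (limma) of 0.165 for Ctsz, 0.465 for Ctsd, 0.344 for Ctsh, 0.650 for Ctsl and 0.714 for Lgmn.

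**Figure D2:**
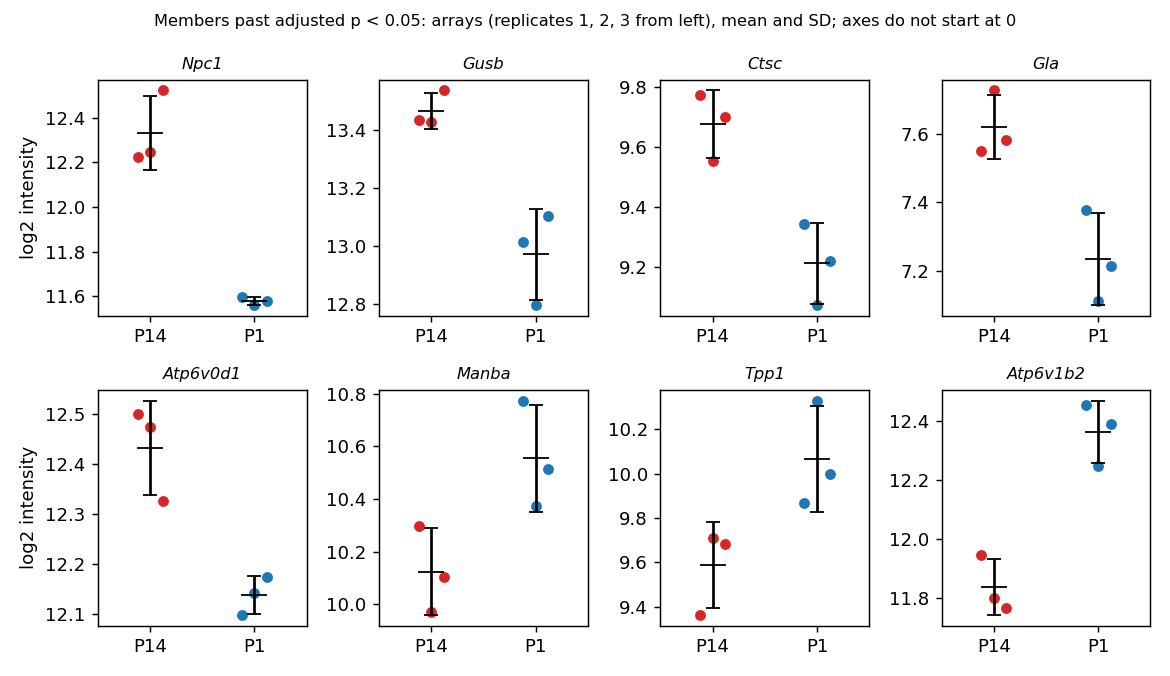
Log2 intensity of the 8 lysosomal genes past an adjusted p of 0.05 on each array (points, replicates 1 to 3 from left) with group mean and SD (n = 3), P14 left and P1 right; each panel has its own axis, which does not start at 0. In every panel the 3 P14 arrays lie entirely above (Npc1, Gusb, Ctsc, Gla, Atp6v0d1) or entirely below (Manba, Tpp1, Atp6v1b2) the 3 P1 arrays.

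The glycosidases, which strip sugars from glycoproteins and glycolipids, split. Of 8 tested, Gusb (by its tested probe) and Gla were higher and Manba was lower in P14 (37.5% called, against 20.0% of all genes). Gusb, beta-glucuronidase, read 13.44, 13.43 and 13.54 in P14 against 13.02, 12.80 and 13.11 in P1. The ranges were apart and the gene was 1.41-fold higher in P14 by this probe (log2 difference 0.50 ± 0.09, limma, adjusted p = 0.0104), also without any single array (adjusted p of 0.0195 to 0.0331). The other 3 Gusb probes, all above background on 6 arrays, differed by 0.04 ± 0.08, -0.03 ± 0.08 and -0.11 ± 0.09. None of them passed (adjusted p of 0.455 to 0.817 over all probes), and the mean of the 4 probes differed by 0.10 (adjusted p = 0.330).

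Gla, alpha-galactosidase A, the enzyme deficient in human Fabry disease, has a single probe. It read 7.55, 7.73 and 7.58 in P14 against 7.38, 7.11 and 7.21 in P1, with no overlap. It was 1.31-fold higher in P14 (log2 difference 0.39 ± 0.09, limma, adjusted p = 0.0224). The call was lost without P14 replicate 2 (adjusted p = 0.0725), P1 replicate 2 (0.0617) or P1 replicate 3 (0.0746). These values lie close to background, which leaves the fold understated, and normexp background correction gave a log2 difference of 0.55 (adjusted p = 0.0153).

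Manba, beta-mannosidase, fell to 10.30, 9.97 and 10.10 in P14, against 10.77, 10.37 and 10.52 in P1. All P14 arrays lay below all P1 arrays, and the gene was 1.35-fold lower in P14 (log2 difference -0.43 ± 0.12, limma, adjusted p = 0.0442). Its second probe had the same sign, at -0.22 ± 0.09 (adjusted p = 0.144 over all probes). The call of Manba was lost without P14 replicate 2 (adjusted p = 0.130), P14 replicate 3 (0.0869), P1 replicate 1 (0.101) or P1 replicate 3 (0.101). The alpha-mannosidase Man2b1 read 13.35, 13.20 and 13.32 in P14 and 13.58, 13.39 and 13.62 in P1. Its ranges were apart as well, but the difference of -0.24 ± 0.08 did not pass (adjusted p = 0.0811), except without P1 replicate 2 (adjusted p = 0.0454).

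Of the remaining glycosidases, Gaa, the acid glucosidase that degrades glycogen, read 9.96, 9.73 and 9.95 in P14 and 9.66, 9.19 and 9.76 in P1. The groups overlapped and the difference of 0.34 ± 0.15 did not pass (limma, adjusted p = 0.144). Glb1 and Neu1, which remove galactose and sialic acid, differed by 0.22 ± 0.16 and 0.16 ± 0.13, and Hexa, a hexosaminidase subunit, by -0.05 ± 0.12. P1 replicate 2 was the lowest array for Gaa, Glb1, Gusb and Gla. Averaged over the 8 glycosidases, its log2 values lay 0.21 below each gene's mean over the 6 arrays, and no other array lay further than 0.10 from it. P1 replicate 2 was below the mean in every other class too. It lay at -0.15 for lipid and sterol handling, -0.11 for Tfeb, -0.10 for membrane proteins, -0.09 for the proton pump and -0.05 for proteases.

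In the proton pump the calls by tested probe also went both ways, with 1 of 5 tested genes higher and 1 lower (40% called, against 20.0% of all genes). The higher call, of Atp6v0d1, was not shared by the other probes of that gene. Atp6v1b2, a catalytic-ring subunit of the cytosolic V1 part, read 11.95, 11.80 and 11.77 in P14 against 12.46, 12.25 and 12.39 in P1. The groups did not overlap, and it was 1.44-fold lower in P14 (log2 difference -0.53 ± 0.08, limma, adjusted p = 0.00620). The call held without every single array (adjusted p of 0.0114 to 0.0281), and the gene has this probe alone.

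Atp6v0d1, the d subunit that couples the V1 part to the membrane-bound V0 part, gave opposite answers by probe. The tested probe, the brightest, read 12.50, 12.47 and 12.33 in P14 against 12.10, 12.14 and 12.17 in P1. By this probe the gene was 1.23-fold higher in P14 (log2 difference 0.29 ± 0.07, limma, adjusted p = 0.0271). The call was lost without any array other than P14 replicate 3: adjusted p was 0.0838 and 0.0839 without P14 replicates 1 and 2, and 0.0721, 0.0644 and 0.0694 without P1 replicates 1, 2 and 3. A second probe read 11.55, 11.70 and 11.56 in P14 against 11.86, 11.75 and 11.98 in P1, entirely the other way, at -0.26 ± 0.08 (adjusted p = 0.0620 over all probes). Another probe read 10.44, 10.56 and 10.45 in P14 against 10.66, 10.81 and 10.72 in P1, at -0.24 ± 0.07 (adjusted p = 0.0520). The fourth differed by -0.17 ± 0.10 (adjusted p = 0.297), and the mean of the 4 probes by -0.095 (adjusted p = 0.344). No direction can therefore be given for Atp6v0d1 as a gene.

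Its paralog Atp6v0d2, a d subunit made in osteoclasts and some macrophages, read 6.77, 6.95 and 6.74 in P14 and 6.82, 6.82 and 6.86 in P1. All values lay below the floor of 6.98 and overlapped, so no fold is given. Atp6v1h, the regulatory H subunit, had 11.54, 11.44 and 11.41 in P14 against 11.34, 11.08 and 11.14 in P1. The accessory gene Atp6ap1 had 13.07, 12.93 and 13.22 in P14 against 12.87, 12.71 and 12.79 in P1. Both had ranges that were apart and both missed the threshold, at 0.28 ± 0.09 each (limma, adjusted p = 0.0564 and 0.0630). Atp6v1h passed without P1 replicate 1 (adjusted p = 0.0304). The catalytic A subunit gene Atp6v1a differed by 0.20 ± 0.14 (adjusted p = 0.349).

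**Figure D3:**
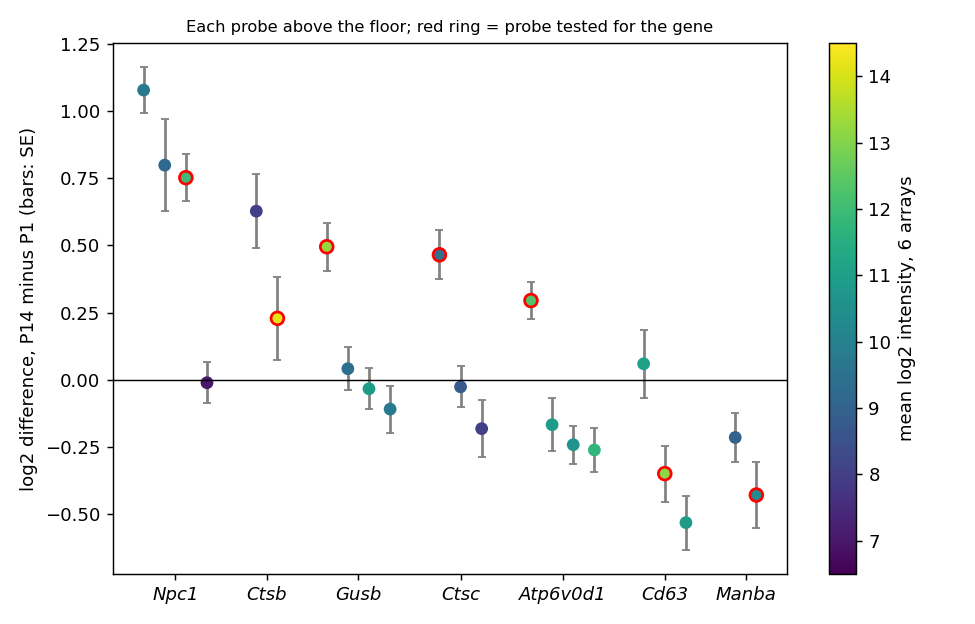
Log2 difference, P14 minus P1, with SE (n = 3 arrays each) for every probe above the floor of 7 lysosomal genes; colour gives the mean log2 intensity over 6 arrays and a red ring marks the probe tested for the gene. The Npc1 probes above 9 on the log2 scale all lie at 0.75 or more, whereas for Atp6v0d1 the ringed probe at 0.29 faces 3 probes between -0.26 and -0.17.

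Probes of a gene did not always share a direction. Of the 36 tested genes, 18 had several probes above background, and in 10 of these (55.6%) all probes had the same sign, against 56.5% of the 3920 such genes on the array. Of the 5 called genes among them, only Manba had all probes of a single sign, and Npc1 missed it through a probe near the floor. Over all called genes with several probes the share was 65.0%. Counted by probe, 8 of 71 lysosomal probes above background were higher and 3 lower in P14 (15.5% together), against 8.25% and 8.22% of all such probes (16.5% together). Several of the 8 higher probes were of Npc1 alone. Those of Gusb, Ctsc and Atp6v0d1 were not matched by the other probes of these genes.

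None of the 5 membrane proteins passed the test with its brightest probe. Cd63, a tetraspanin of late endosomes and secretory lysosomes, read 12.81, 13.18 and 12.95 in P14 against 13.36, 13.22 and 13.42 in P1. The ranges were just apart, with a difference of -0.35 ± 0.11 (limma, adjusted p = 0.0525), and it passed without P14 replicate 2 (adjusted p = 0.0317). A second Cd63 probe read 10.42, 10.69 and 10.75 in P14 against 11.04, 11.24 and 11.18 in P1, and its difference of -0.53 ± 0.10 passed over all probes (adjusted p = 0.0130). The third differed by 0.06 ± 0.13 (adjusted p = 0.809).

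Lamp1 and Lamp2, the glycoproteins that coat the inner face of the lysosomal membrane, differed little. Lamp1 read 13.62, 13.72 and 13.73 in P14 and 13.62, 13.54 and 13.69 in P1, a difference of 0.07 ± 0.07 (limma, adjusted p = 0.520). The tested Lamp2 probe differed by 0.16 ± 0.10 (adjusted p = 0.311), and its 7 probes ran from -0.31 to 0.16. Scarb2, the receptor that carries glucocerebrosidase to the lysosome, differed by 0.31 ± 0.12 (adjusted p = 0.104) and the calcium channel gene Mcoln1 by -0.01 ± 0.11 (adjusted p = 0.961). The transcription factor Tfeb stood close to the floor, at 7.16, 7.08 and 7.17 in P14 and 7.07, 7.00 and 7.18 in P1. Its groups overlapped (0.05 ± 0.07, adjusted p = 0.701).

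**Figure D4:**
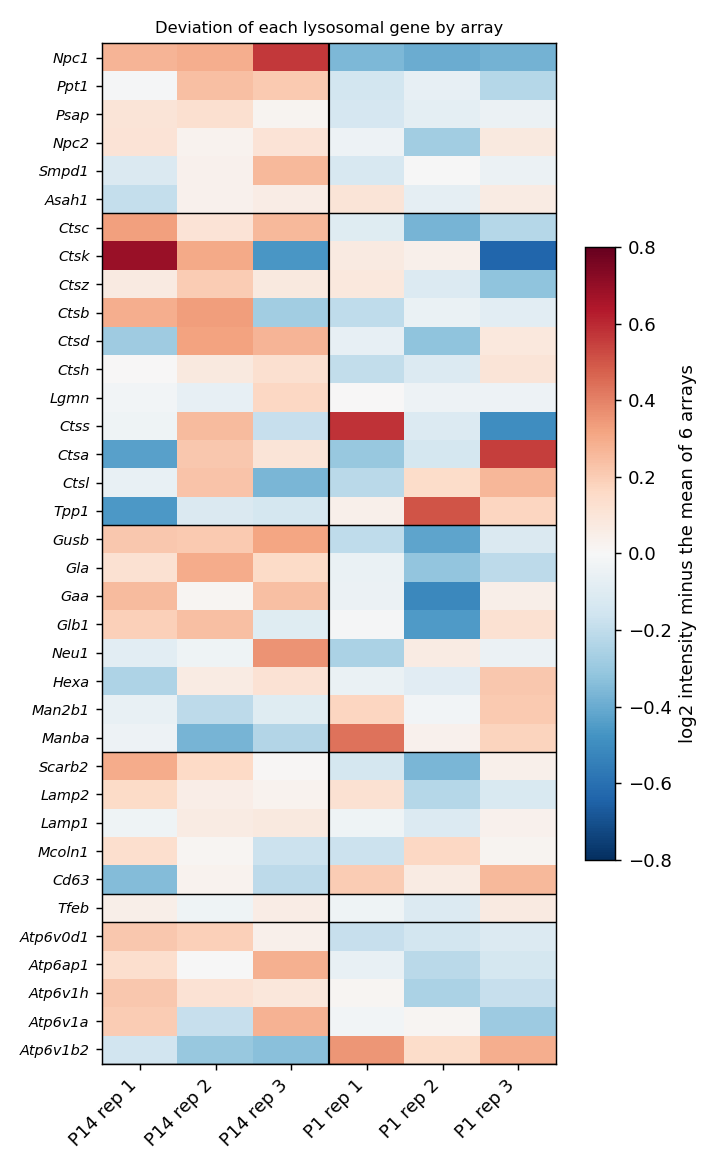
Log2 intensity of each tested lysosomal gene on each array minus its mean over the 6 arrays, grouped by class and ordered by the P14 minus P1 difference, P14 arrays left. Npc1 is above its mean on all P14 arrays and Atp6v1b2 on all P1 arrays, while Ctsk, Ctss and Ctsa vary within an age, with replicate 3 the lowest array of each age for Ctsk.

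Other genes of the same compartment were read from lists. Both mannose 6-phosphate receptors were called higher in P14. Igf2r, the cation-independent mannose 6-phosphate receptor, which also binds and clears IGF2, read 10.40, 10.12 and 10.18 in P14 against 9.36, 9.59 and 9.30 in P1. The groups did not overlap and it was 1.76-fold higher in P14 (log2 difference 0.82 ± 0.11, limma, adjusted p = 0.00324), with a second probe at 0.62 ± 0.09 (adjusted p = 0.00616 over all probes). M6pr, the cation-dependent receptor, was 1.30-fold higher (0.38 ± 0.09, adjusted p = 0.0241). That call was lost with the mean of its probes (0.25, adjusted p = 0.0850) and without P14 replicate 2 (adjusted p = 0.0780), P14 replicate 3 (0.0569), P1 replicate 1 (0.0594) or P1 replicate 2 (0.0703). The sorting receptors Sort1 and Sorl1 did not pass (-0.14 ± 0.13 and 0.13 ± 0.13, adjusted p = 0.503 and 0.560). The adaptor Gga1, which binds the tails of these receptors, was 1.26-fold lower in P14 (-0.33 ± 0.08, adjusted p = 0.0219), but not without P14 replicate 2 (adjusted p = 0.0667) or P1 replicate 3 (0.0813). Its other probes were lower too, at -0.54 ± 0.11 and -0.22 ± 0.06 (adjusted p = 0.0154 and 0.0478 over all probes). The last of these probes lay below the floor on the P14 arrays. In all, 2 of 16 sorting genes were higher and 1 lower (18.8% called, against 20.0% of all genes), with a median of 0.13.

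Of 23 other lysosomal hydrolases tested, 2 were higher and 5 lower in P14 (30.4% called, against 20.0% of all genes), with a median of -0.01. Lipa, the acid lipase that frees cholesterol from its esters, read 11.13, 11.05 and 11.44 in P14 against 12.07, 11.87 and 11.93 in P1. All P14 arrays were below all P1 arrays, and Lipa was 1.68-fold lower in P14 (-0.75 ± 0.11, limma, adjusted p = 0.00511), with its second probe at -0.56 ± 0.12 (adjusted p = 0.0198 over all probes). Lipa was thus called lower and Npc1 higher in P14, while Npc2 did not pass. No sterol was measured, and a link between these differences was not tested. Ctsf, a further cysteine cathepsin, was 1.60-fold lower (-0.68 ± 0.12, adjusted p = 0.00977). Hgsnat, which acetylates heparan sulphate for its breakdown, was 1.36-fold higher (0.45 ± 0.09, adjusted p = 0.0152), a call lost without P14 replicate 1 (0.0509) or 2 (0.0503). The mannosidase Man2b2 was 1.38-fold lower by its tested probe (-0.47 ± 0.09, adjusted p = 0.0108), whereas its other probes gave -0.04 and 0.29, and the mean of all 3 probes gave -0.07 (adjusted p = 0.488).

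Of 20 other lysosomal membrane proteins, 2 were higher and 5 lower in P14 (35.0% called, against 20.0% of all genes), with a median of -0.05. The tested probe of Tpcn1, a cation channel of endosomes and lysosomes, read 9.68, 9.72 and 10.04 in P14 against 10.92, 10.89 and 11.00 in P1. By it Tpcn1 was 2.18-fold lower in P14 (-1.12 ± 0.10, limma, adjusted p = 0.00138), while its other probes differed by -0.27 ± 0.11 and 0.18 ± 0.14 (adjusted p = 0.143 and 0.461 over all probes). Cln3, a membrane protein mutated in human juvenile neuronal ceroid lipofuscinosis, was 1.33-fold higher (0.41 ± 0.08, adjusted p = 0.0127). Cd82, a tetraspanin like Cd63, was 1.33-fold lower (-0.41 ± 0.09, adjusted p = 0.0209). It lost its call without P14 replicate 1 (0.0678) or 2 (0.0503), or P1 replicate 1 (0.0544) or 2 (0.0529). Laptm4a was 1.28-fold lower (-0.35 ± 0.08, adjusted p = 0.0217), but not without P14 replicate 1 (0.0618) or 2 (0.0671) or P1 replicate 3 (0.0646).

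The remaining proton pump subunits again divided, with 2 of 14 higher and 1 lower (21.4% called, against 20.0% of all genes) and a median of 0.05. Atp6v1c1, the C subunit that helps hold the V1 and V0 parts together, read 10.87, 10.74 and 10.71 in P14 against 10.18, 10.33 and 10.24 in P1. It was 1.44-fold higher in P14 (0.53 ± 0.08, limma, adjusted p = 0.00456), with no overlap, and its second probe differed by 0.20 ± 0.10 (adjusted p = 0.209 over all probes). Of the a subunits, which anchor the pump in a given membrane, 1 was called higher and 1 lower. Atp6v0a2 was 1.34-fold higher in P14 (0.42 ± 0.10, adjusted p = 0.0225; 0.0711 without P14 replicate 1, 0.0514 without P14 replicate 3 and 0.0645 without P1 replicate 3). Atp6v0a1 was 1.39-fold lower (-0.47 ± 0.13, adjusted p = 0.0421), which passed with all arrays and without P14 replicate 1, but not without any other array (0.0501 to 0.114). Tcirg1, the a subunit of osteoclasts and phagocytes, did not pass (0.16 ± 0.10, adjusted p = 0.324).

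**Figure D5:**
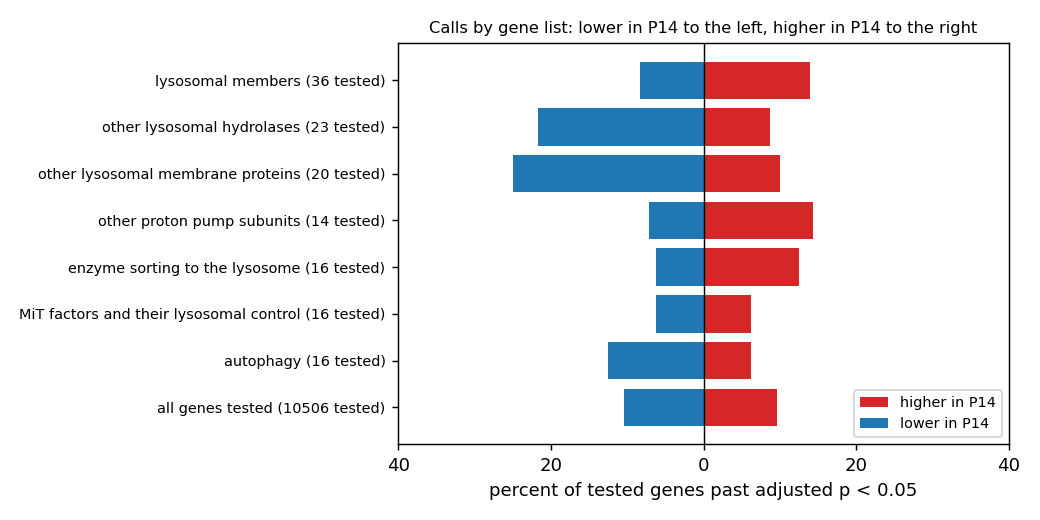
Percentage of tested genes past an adjusted p of 0.05 in each list, higher in P14 to the right and lower in P14 to the left, with all 10506 genes at the bottom. The 36 lysosomal genes (5 higher, 3 lower) lie near the bottom bar, and the other hydrolases and membrane proteins have 5 lower genes each.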

How the data were processed

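The authors deposited linear probe intensities for 6 Illumina arrays, and titles gave the groups. Sorted, the columns were the same to within 0.471%, so the deposited intensities had been quantile-normalized, with background left in (the most frequent value was 112). The software used was not given in the sources used here. A scanner table of 24 columns was not used: chip positions name them, and no label ties a position to a sample.

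Of 45281 probes, 34885 had a single gene symbol in the platform annotation and were used for genes, 18 had several and 10378 had none. The floor was set 3 SD above the most frequent log2 value. Probes above it on at least 3 arrays (19106) were kept, and each gene was represented by its brightest kept probe. Log2 intensities were compared with limma 3.58.1 (lmFit, eBayes) in R 4.3.3 with a term for group only, two-sided, adjusted by Benjamini-Hochberg. Each probe was also tested as a feature of its own. Differences are P14 minus P1, and folds are understated near background. The number of arrays limits the precision.

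Members and lists were chosen with earlier results of these data known. All members are accounted for. Of each other list, up to 4 called genes with the largest difference are named. Col1a1, Csf1r, Ptprc, Sort1, Sorl1, Npc2, Psap, Tcirg1, Tfe3, Mitf, Cst3 and Cstb, and further members given array by array without a call, were chosen after their values were seen. Alternatives covered the filter, probe rule, variance model, array weights, replicate block, background correction, a further loess step and leaving out each array.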

Additional observations from a re-analysis of the deposited data

How the results depend on the processing

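Of the 8 called lysosomal genes, 4 (Npc1, Atp6v1b2, Gusb and Ctsc) kept the call without every single array, and 3 (Npc1, Atp6v1b2 and Gla) under all 9 settings that used all arrays. Over the whole array, 1011 genes were higher and 1094 lower in P14, and without single arrays these counts ran from 535 to 893 and from 519 to 921. Lysosomal genes higher in P14 numbered 5, and 3 with the mean of each gene's probes, 5 to 7 under the other settings that used all arrays, and 3 to 6 without single arrays. Those lower numbered 3, but 1 with no filter on dim probes, 2 to 4 under the other such settings, and 1 to 3 without single arrays. A call was gained in some such setting by 7 lysosomal genes: Ctsb (0.43, adjusted p = 0.00701, mean of probes), Cd63 (adjusted p of 0.0197 to 0.0489 in 3 settings), Gaa (0.0401, block), Man2b1 (0.0424) and Ppt1 (0.0354) with array weights, Atp6v1h (0.0388 with array weights and 0.0427 with the block) and Atp6ap1 (0.0471, trend and robust fit). With the mean of probes the log2 difference changed sign for Atp6v0d1 (-0.095), Smpd1 (-0.061) and Lamp2 (-0.025), and with array weights for Mcoln1 (0.02). Without single arrays the differences of uncalled genes crossed 0 for Ctsa (-0.244 to 0.185), Ctsl (-0.28 to 0.019), Ctss (-0.227 to 0.312), Lgmn (-0.02 to 0.096), Hexa (-0.117 to 0.064), Asah1 (-0.115 to 0.015) and Mcoln1 (-0.098 to 0.071). The cause was not tested. Same-numbered arrays of the 2 ages deviated together by correlations of 0.16, 0.07 and 0.13, and each array correlated best with its own number. This is a hint from the data, since the labels do not say that numbers pair samples. With the replicate number as a block, 1064 genes were higher and 1117 lower in P14, and 7 lysosomal genes were higher and 3 lower. A chip block could not be fitted, since no label or header used here ties an array to a chip.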

Other observations

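Autophagy feeds the lysosome from within the cell. Of 16 autophagy genes tested, 1 was higher and 2 were lower in P14 (18.8% called, against 20.0% of all genes), with a median log2 difference of -0.07. Gabarap, a ubiquitin-like protein of the autophagosome membrane, read 12.21, 12.24 and 12.13 in P14 against 12.83, 12.87 and 12.80 in P1. All P14 arrays lay below all P1 arrays, and Gabarap was 1.56-fold lower in P14 (-0.64 ± 0.07, SE, n = 3 per group, limma, adjusted p = 0.00168), also without every single array. Atg7, the enzyme that activates it for conjugation, was 1.31-fold lower (-0.39 ± 0.10, adjusted p = 0.0305), but its call was lost without any array other than P1 replicate 1 (adjusted p of 0.0501 to 0.0823). Atg5 was 1.21-fold higher (0.28 ± 0.06, adjusted p = 0.0213), and not so without P14 replicate 2 (0.0628), P1 replicate 1 (0.0588) or P1 replicate 3 (0.0704), nor with the trend and robust fit (0.0527). Its second probe differed by 0.02 ± 0.10 (adjusted p = 0.930 over all probes), and the mean of both by 0.15 (adjusted p = 0.187).

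Among the relatives of Tfeb and the proteins that control them at the lysosome, 1 of 16 was higher and 1 lower in P14 (12.5% called, against 20.0% of all genes), with a median of -0.02. Tfe3 differed by -0.02 ± 0.07 and Mitf by -0.14 ± 0.10, neither past the test (limma, adjusted p = 0.895 and 0.376). Mtor, the kinase that holds these factors in the cytosol, was 1.37-fold higher in P14 by its tested probe (0.46 ± 0.08, adjusted p = 0.00779), while its other probe passed in the opposite direction (-0.35 ± 0.08, adjusted p = 0.0237 over all probes). Fnip1, a partner of folliculin, was 1.22-fold lower (-0.28 ± 0.08, adjusted p = 0.0492), but not without any array other than P1 replicate 2 (0.0757 to 0.151). That call was also lost under 7 of the 9 settings that used all arrays (0.0513 to 0.128), among them the mean of its probes at -0.17, and its other probes differed by -0.19 and -0.05 without passing.

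Of the inhibitors of cysteine cathepsins, the secreted cystatin Cst3 read 13.69, 13.87 and 14.03 in P14 and 13.68, 13.88 and 13.80 in P1 (0.08 ± 0.10, limma, adjusted p = 0.654). Cstb differed by -0.05 ± 0.08 (adjusted p = 0.706). The stefin Stfa1 read 7.61, 7.46 and 8.19 in P14 against 11.48, 11.01 and 12.29 in P1, and was 14.3-fold lower in P14 (-3.84 ± 0.32, adjusted p = 0.00137). The probes of Stfa1 and Stfa2 may each read near-identical copies. Stfa2 was 4.23-fold lower (-2.08 ± 0.51, adjusted p = 0.0264). It lost its call without P14 replicate 1 (0.0757) or 2 (0.0805) or P1 replicate 1 (0.0545), with no filter on dim probes (0.0599) and with the trend and robust fit (0.114). Without P1 replicate 3 its difference was -1.45 (adjusted p = 0.0287), and its second probe differed by -1.03 ± 0.33 (adjusted p = 0.0701 over all probes). Of 5 cystatins tested these 2 were lower and none was higher (40% called, against 20.0% of all genes).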
